A study of Mus musculus with 4 samples.

Results

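The genes *Mef2a*, *Mef2c*, *Mef2d*, *Six4*, *Eya1*, *Myf6* and *Pax3* encode transcription factors, and in the case of EYA1 a co-activator, that act beside PAX7, MYOD and myogenin in the skeletal muscle lineage. These 7 genes were read out of the 32285 genes counted in single cells of hindlimb muscle, in 4 samples of sorted tdTomato+ cells. The 2 control samples came from Pax7CreERT2/+;Rosa26-tdTomato+ mice, which had no floxed alleles. The 2 α-cdKO samples came from Ctnna1fl/fl;Ctnna3fl/fl;Pax7CreERT2/+;Rosa26-tdTomato+ mice, in which Cre removes αE- and αT-catenin. Cre and the reporter were thus present in both genotypes, all mice were given tamoxifen, and cells were collected 14 days later from animals of 3 to 4 months. Cre was driven by *Pax7*, so the label marks cells that expressed *Pax7* at the time of tamoxifen and their descendants, and each sample was a pool of 2 littermates.

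MEF2 proteins (the products of *Mef2a*, *Mef2c* and *Mef2d*) are MADS box factors that bind AT-rich sites and activate contractile and metabolic genes of muscle, together with MYOD and myogenin. Class IIa histone deacetylases bind MEF2 and hold its targets silent. SIX4 binds MEF3 sites in muscle promoters, among them that of *Myog*, and EYA proteins join it as co-activators and phosphatases. PAX3 is the paralog of PAX7 and specifies embryonic muscle progenitors, and in the adult it is kept by muscle stem cells (MuSCs) of only some muscles. MYF6 (MRF4) is the myogenic bHLH factor that is most abundant in mature fibers.

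Counts are unique molecular identifiers (UMIs), each standing for a captured RNA molecule, read at the 3′ end of transcripts. After removal of barcodes with fewer than 1000 UMIs, fewer than 400 genes or at least 15% mitochondrial UMIs, 5484 and 5354 cells remained in controls 1 and 2 and 9786 and 8166 in α-cdKO samples 1 and 2. The median kept cell held 6452.5 to 8075 UMIs. Barcodes with at least 1% of their UMIs on fiber genes such as *Ckm* (1154 in all, 747 of them in control 2) were set apart as fiber RNA barcodes, as were cells with UMIs of at least 3 endothelial (146), immune (30) or glial (37) genes. The other 27423 cells are called myogenic cells, and they held 40884 UMIs of the 7 genes. Any pair of libraries shared 9 to 26 barcode sequences. In the myogenic cells of the 4 samples, the targeted *Ctnna1* stood at 91.0 and 74.5 CPM (UMIs of a gene scaled to the same total in every sum) in control and 79.8 and 75.4 CPM in α-cdKO samples, and *Ctnna3* had 1 to 13 UMIs. A count near the 3′ end does not check the genotype where it lies outside the deleted part.

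To compare like with like, each myogenic cell was thinned to 2000 UMIs, and 27015 cells were deep enough. Cells were then grouped by the UMIs seen at that depth. Pax7+ cells had *Pax7* but neither *Myod1* nor *Myog* (2615 cells), Myod1+ cells had *Myod1* but neither *Pax7* nor *Myog* (6990 cells), and Myog+ cells had *Myog* (570 cells: 50 and 92 from control, 266 and 162 from α-cdKO samples). A further 783 cells had both *Pax7* and *Myod1*, and 16057 had none of the 3. *Pax7*, *Myod1* and *Myog* define these groups and are no results. Grouping by 1 UMI is blunt: at this depth *Pax7* was seen in 12.7% of myogenic cells and 2.16% of endothelial cells, *Myod1* in 29.7% and 14.4%, and *Myog* in 2.11% and 0 of 139, which allows up to 2.16%. The median Myog+ cell held 13284.5 UMIs before thinning and the median Pax7+ cell 7584, so levels are given below as CPM of the summed raw UMIs of a group in a sample. Because capture differs between genes, levels are compared between cells and not between genes.

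The sequences upstream of 3 members are shown because these factors are known to act on each other's genes. RefSeq promoter entries (GRCm38.p6) were matched for 4 of the 7 members, with 7 start sites. *Eya1*, *Myf6* and *Pax3* are named only. Capitals mark E boxes (CANNTG, bound by MYOD and myogenin), the MEF3 motif (TCAGGTT or its reverse complement AACCTGA, bound by SIX4) or the MEF2 site, searched on both strands. In windows of 300 bases around 32851 start sites, 72.3% held an E box, 4.07% the MEF3 motif and 3.19% a MEF2 site. The 250 bases before a *Mef2c* start on the plus strand (chr13:83503784-83504033) hold a MEF3 motif starting 248 bases and E boxes starting 234 and 100 bases before the start. The 250 bases before a *Six4* start on the minus strand (chr12:73113246-73113495) hold a MEF3 motif 97 bases before the start. The 30 bases around the *Mef2a* start on the minus strand (chr7:67372841-67372870) hold a MEF2 site. Of the 7 windows of 250 bases, those of *Mef2d*, the other *Six4* start and another *Mef2c* start held none of the motifs, and that of the remaining *Mef2c* start held 1 E box. These are matches of letters, and no binding was measured.
Mef2c: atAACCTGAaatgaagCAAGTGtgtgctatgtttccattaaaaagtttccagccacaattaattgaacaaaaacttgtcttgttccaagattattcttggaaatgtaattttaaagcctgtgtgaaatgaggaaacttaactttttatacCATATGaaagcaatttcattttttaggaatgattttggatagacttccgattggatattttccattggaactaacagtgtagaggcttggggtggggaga
Six4: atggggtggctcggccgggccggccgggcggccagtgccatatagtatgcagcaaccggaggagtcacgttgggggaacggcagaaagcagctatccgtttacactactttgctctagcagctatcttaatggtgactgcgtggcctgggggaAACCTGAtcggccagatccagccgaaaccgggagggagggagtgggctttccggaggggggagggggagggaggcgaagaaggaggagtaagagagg
Mef2a: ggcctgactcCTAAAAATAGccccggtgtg

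*Mef2c* was low in Pax7+ and Myod1+ cells and high in Myog+ cells. *Mef2c* (ENSMUSG00000005583, chromosome 13 from 83504034 to 83667080, plus strand, GRCm38) stood at 1.69, 1.90, 1.84 and 0.70 CPM in the Pax7+ cells of control 1, control 2, α-cdKO 1 and α-cdKO 2, sums of 12, 7, 8 and 5 UMIs. In Myod1+ cells it was 1.55, 2.67, 2.46 and 0.70 CPM. In Myog+ cells it was 56.6, 98.5, 129.5 and 121.2 CPM, from 49, 153, 416 and 326 UMIs. The lowest Myog+ value lay far above every value of the other groups, and within a library the Myog+ level was 33.5 to 172 times the Pax7+ level. The log2 fold change was 5.73 from Myod1+ to Myog+ (SE 0.230, adjusted p = 7.09e-16, edgeR quasi-likelihood test over library sums with Benjamini-Hochberg adjustment), and *Mef2c* was number 58 from the top of 11420 genes. From Pax7+ to Myod1+ cells, the fold change of *Mef2c* was 0.27 (SE 0.451, 95% interval −0.66 to 1.20, adjusted p = 0.654), with 114 UMIs in 6990 Myod1+ cells. In single cells at 2000 UMIs, 0.229% of Pax7+, 0.315% of Myod1+ and 13.5% of Myog+ cells had a *Mef2c* UMI (77 of 570, exact 95% interval 10.8 to 16.6%).

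*Mef2c* was also high in endothelial cells and in fiber RNA barcodes. Endothelial cells held 173, 209, 207 and 92.9 CPM and 28.8% of them had a UMI (median 7723 UMIs before thinning). Fiber RNA barcodes held 538, 434, 401 and 415 CPM and 54.0% of them had a UMI (median 4173 UMIs). The shares of Pax7+ and Myod1+ cells with a *Mef2c* UMI lay far under the endothelial share, at similar depth. The ratio of *Mef2c* to *Ckm* in the fiber RNA barcodes of each library, applied to the *Ckm* of its Pax7+ cells, gave 36.7 to 77.6% of the *Mef2c* found there. The same ratio gave 0.763 to 3.57% of the *Mef2c* of Myog+ cells. The endothelial marker list (6 genes) summed to 7.9 to 11.5 CPM in Pax7+ cells and 3.2 to 8.4 CPM in Myog+ cells.

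**Figure D1:**
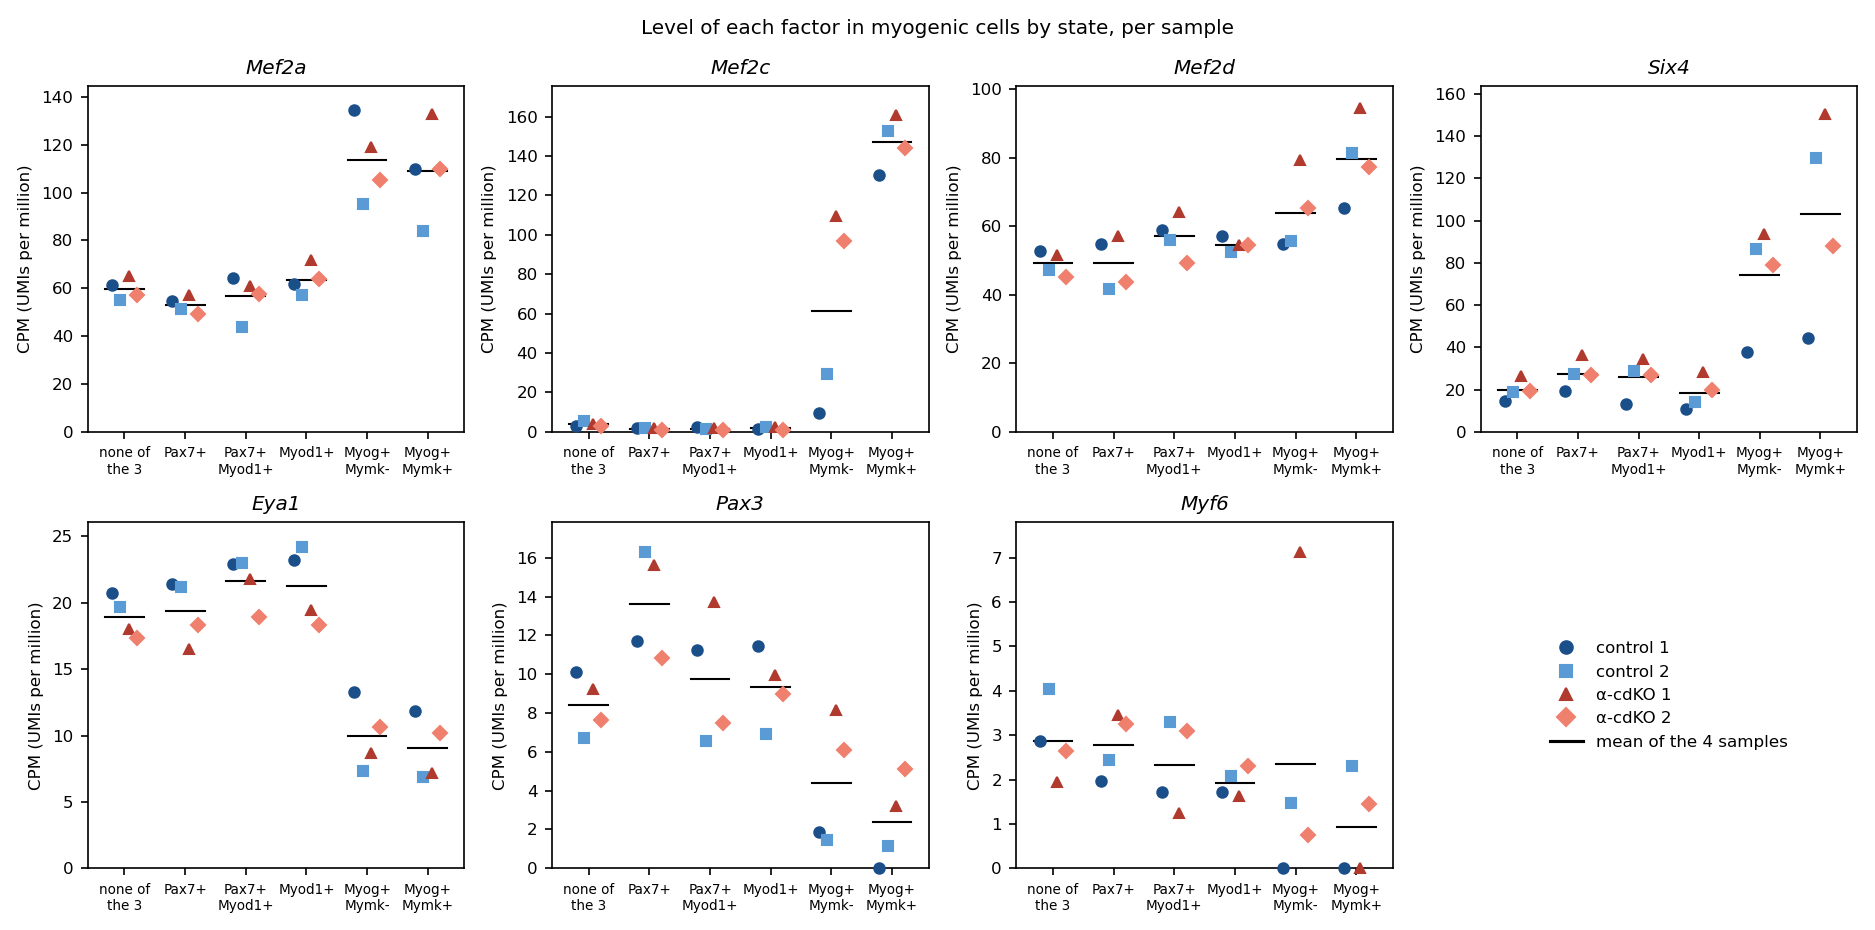
CPM of each gene in the summed UMIs of each myogenic cell group, with Myog+ cells split by a *Mymk* UMI, 1 point per sample and lines at the mean of the 4 samples. *Mef2c* stays at or under 5.36 CPM outside Myog+ cells and is 130 to 161 CPM in *Mymk*+ cells, *Six4* is highest in Myog+ cells of every sample, and *Eya1* and *Pax3* have their lowest means there.

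Among Myog+ cells, *Mef2c* was higher in those with *Mymk*, which encodes myomaker, the membrane protein needed for myoblast fusion. Cells with a *Mymk* UMI at 2000 UMIs (17, 46, 91 and 79 cells) held 130, 153, 161 and 144 CPM of *Mef2c*, and those without held 9.47, 29.3, 109.6 and 97.1 CPM. The *Mymk*+ level was higher in 4 of 4 samples, and the groups did not overlap. Its ratio to the *Mymk*- level ran from 1.47 to 13.8, as *Mymk*- cells held less *Mef2c* in both controls than in both α-cdKO samples. Without thinning, *Myog* too was read at full depth, so the set of Myog+ cells was larger. Its *Mymk*- cells held 8.44, 27.6, 6.15 and 8.77 CPM of *Mef2c*, and the difference by genotype was not tested. At 2000 UMIs the log2 fold change of *Mef2c* was 1.15 (SE 0.298, adjusted p = 0.0270, edgeR), and 9.21% of the 6633 genes tested in this split were called. *Mef2c* was not called in this split without control 2 (0.87, adjusted p = 0.143), with no cells set aside (0.80, adjusted p = 0.104) or by DESeq2 (1.64, adjusted p = 0.168), and its fold change was 3.53 (adjusted p = 7.99e-06, edgeR) when groups were read at full depth. None of the other 4 members tested was called at 2000 UMIs: *Six4* had a fold change of 0.39 (adjusted p = 0.131), *Mef2d* 0.25 (adjusted p = 0.377), *Mef2a* −0.10 (adjusted p = 0.763) and *Eya1* −0.21 (adjusted p = 0.801). With groups read at full depth *Six4* (1.43, adjusted p = 2.50e-05) and *Mef2a* (0.49, adjusted p = 0.0456, edgeR) were called higher as well, and *Six4* was called at 4000 UMIs (1.06, adjusted p = 0.00761). *Myf6* and *Pax3* had too few UMIs to be tested. The sum of the 8 fiber genes moved with this split. It was 519, 818, 250 and 331 CPM in *Mymk*+ cells and 199, 342, 204 and 276 CPM in *Mymk*- cells, higher in 4 of 4 samples. Of the 8 fiber genes 4 were tested in this split. *Ckm* (0.89, adjusted p = 0.0246) and *Atp2a1* (0.63, adjusted p = 0.00572, edgeR) were called, and 2 were not. In all Myog+ cells, not split by *Mymk*, the fiber ratio to *Ckm* gave at most 3.57% of the *Mef2c*. The part of the fiber genes in the result was not tested.

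For the cells that were Myog+ at 2000 UMIs, the split by *Mymk* was read again at full depth. This reading was chosen after the values above were seen and is given as a description. Of the 570 Myog+ cells, 170 had no *Mymk* UMI at any depth, 167 had one only among the UMIs left out by thinning, and 233 had one at 2000 UMIs. The 170 cells without *Mymk* held 13 of the 944 *Mef2c* UMIs of Myog+ cells, or 1.38%, though they were 29.8% of the cells. Their levels of *Mef2c* were 4.50, 0, 4.69 and 19.9 CPM (1, 0, 4 and 8 UMIs), and a count of 0 in control 2 allows up to 11.5 CPM. In cells whose *Mymk* lay only among the UMIs left out, *Mef2c* was 13.1, 47.5, 190 and 131 CPM. The cells without *Mymk* were shallower (median 8964.5 UMIs, against 15590 and 15308 in the others), and the part of depth in this split was not tested. The same cells held 20.9% of all UMIs of Myog+ cells, and 11.2% of the *Six4*, 17.8% of the *Mef2a*, 17.1% of the *Mef2d*, 23.7% of the *Eya1*, 42.1% of the *Pax3* (16 UMIs) and 10.0% of the *Myf6* UMIs (2 UMIs).

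**Figure D2:**
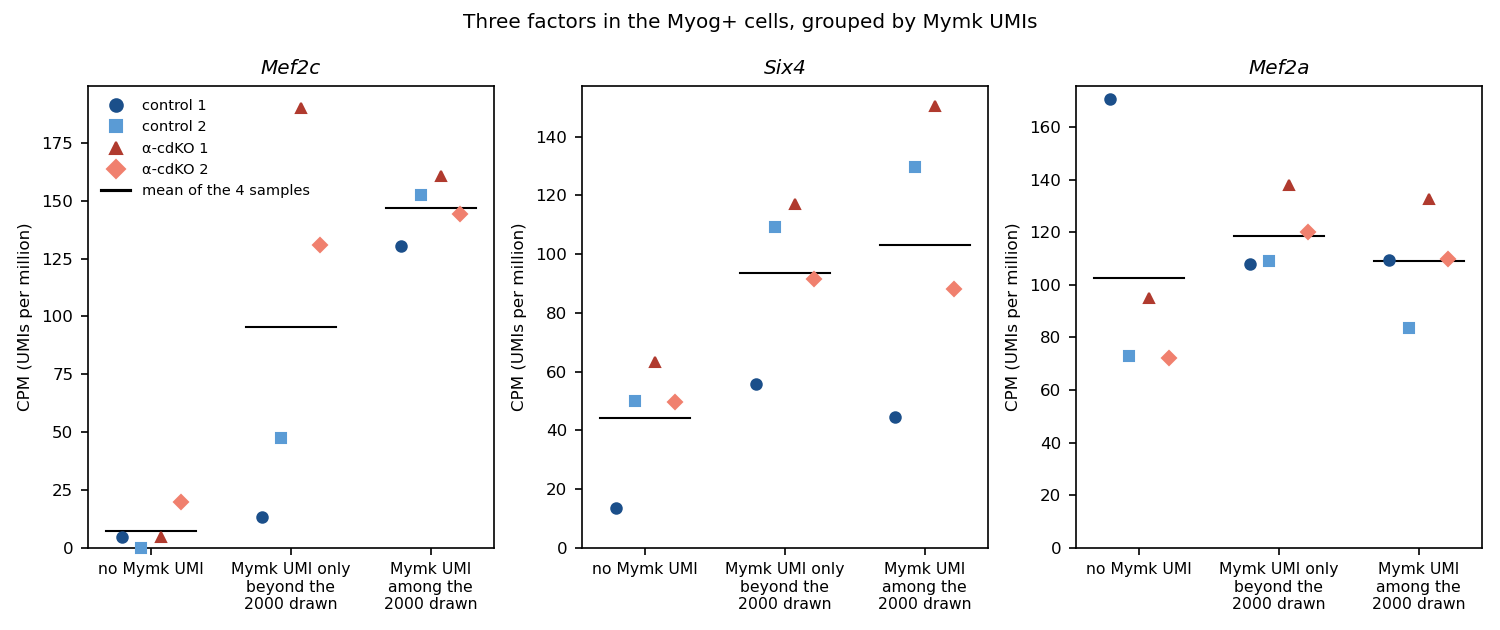
CPM of *Mef2c*, *Six4* and *Mef2a* in Myog+ cells with no *Mymk* UMI at any depth, with a *Mymk* UMI only among the UMIs left out by thinning, and with one at 2000 UMIs (1 point per sample, bars at the mean). *Mef2c* is at most 19.9 CPM in the first group and at least 130 CPM in the last.

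*Mef2a* and *Mef2d* were present in every group and rose by far less. *Mef2a* (ENSMUSG00000030557, chromosome 7 from 67231163 to 67372858, minus strand) was 54.9, 51.4, 57.0 and 49.2 CPM in Pax7+ cells, 61.7, 57.1, 71.7 and 63.8 CPM in Myod1+ cells and 124.8, 88.8, 124.5 and 107.8 CPM in Myog+ cells. None of these 3 groups overlapped with another in *Mef2a*, though the highest Pax7+ value (57.0) nearly met the lowest Myod1+ value (57.1). The log2 fold change of *Mef2a* was 0.34 from Pax7+ to Myod1+ (SE 0.0707, adjusted p = 5.70e-04) and 0.63 from Myod1+ to Myog+ (SE 0.0744, adjusted p = 7.86e-08, edgeR). *Mef2a* is not specific to muscle, as endothelial cells held 194, 196, 160 and 134 CPM, above every value of these 3 groups.

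*Mef2d* (ENSMUSG00000001419, chromosome 3 from 88142372 to 88172086, plus strand) was 54.9, 41.6, 57.2 and 43.8 CPM in Pax7+ cells, 57.2, 52.6, 54.5 and 54.4 CPM in Myod1+ cells and 58.9, 70.2, 85.3 and 71.4 CPM in Myog+ cells. Pax7+ and Myod1+ values of *Mef2d* overlapped, and the Myog+ values lay above both. The fold changes of *Mef2d* were 0.22 (SE 0.0855, adjusted p = 0.0403) for the first step and 0.27 (SE 0.0952, adjusted p = 0.0161) for the second (edgeR). Both calls of *Mef2d* were lost in 6 of 14 alternatives. The first was lost at 4000 UMIs, without thinning, with thinned UMIs summed (0.087, adjusted p = 0.599), under 5% mitochondrial UMIs (0.13, adjusted p = 0.671), without control 2 (adjusted p = 0.110) and without α-cdKO 2 (adjusted p = 0.202). The second was lost with thinned UMIs summed, under 5% mitochondrial UMIs (0.075, adjusted p = 0.806), without the count filter, and without control 2, α-cdKO 1 or α-cdKO 2.

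*Six4* moved down and then up. *Six4* (ENSMUSG00000034460, chromosome 12 from 73099609 to 73113456, minus strand) was 19.2, 27.5, 36.6 and 27.1 CPM in Pax7+ cells and 11.01, 14.3, 28.5 and 19.9 CPM in Myod1+ cells. It was lower in Myod1+ cells in 4 of 4 libraries, although the groups overlapped because the libraries differ. The log2 fold change of *Six4* was −0.53 (SE 0.124, adjusted p = 0.00176, edgeR). In Myog+ cells *Six4* rose to 40.4, 110.7, 115.8 and 83.6 CPM, above all values of the other groups, with a fold change of 2.11 over Myod1+ cells (SE 0.123, adjusted p = 4.01e-13, edgeR; number 478 from the top of 11420 genes). At 2000 UMIs a *Six4* UMI was seen in 4.32% of Pax7+, 3.33% of Myod1+ and 14.2% of Myog+ cells, and in 1.44% of endothelial cells (2 of 139). Fiber RNA barcodes held 17.0 to 20.3 CPM, below the level of *Six4* in Myog+ cells of every sample. Control 1 had the lowest *Six4* in each of the 3 groups.

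*Eya1* ran the other way. *Eya1* (ENSMUSG00000025932, chromosome 1 from 14168954 to 14310235, minus strand) was 21.4, 21.2, 16.6 and 18.3 CPM in Pax7+ cells and 23.2, 24.2, 19.5 and 18.3 CPM in Myod1+ cells, a fold change of 0.20 that was not called (SE 0.0887, adjusted p = 0.0743). In Myog+ cells *Eya1* was 12.7, 7.08, 8.09 and 10.4 CPM, below all values of the other groups. The fold change was −1.32 from Myod1+ to Myog+ (SE 0.139, adjusted p = 1.28e-08, edgeR). SIX4 and EYA1 transcripts thus changed in opposite directions at this step, each in 4 of 4 libraries.

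*Pax3* fell along the same order. *Pax3* (ENSMUSG00000004872, chromosome 1 from 78101267 to 78197134, minus strand) was 11.7, 16.3, 15.6 and 10.8 CPM in Pax7+ cells, 11.5, 6.90, 9.94 and 8.99 CPM in Myod1+ cells and 1.16, 1.29, 6.23 and 5.58 CPM in Myog+ cells. The Myog+ values of *Pax3* rest on 1, 2, 20 and 15 UMIs and lay below all Pax7+ and Myod1+ values. The fold change of *Pax3* was −0.43 for the first step (SE 0.171, adjusted p = 0.0438), which was not called in 12 of 14 alternatives. From Myod1+ to Myog+ *Pax3* had a fold change of −1.20 (SE 0.289, adjusted p = 8.90e-04, edgeR), but it was not called with thinned UMIs summed (−0.71, adjusted p = 0.279) or among cells under 5% mitochondrial UMIs (−0.58, adjusted p = 0.335). *Pax3* was near 0 in fiber RNA barcodes, with 6 UMIs in all 4 samples and 0 of 783 barcodes with a UMI at 2000 UMIs, which allows up to 0.383%.

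*Myf6* was low in every myogenic group, with at most 3 UMIs in the Myog+ cells of both controls and of α-cdKO 2. *Myf6* (ENSMUSG00000035923, chromosome 10 from 107492853 to 107494737, minus strand) was 1.97, 2.45, 3.45 and 3.24 CPM in Pax7+ cells, 1.73, 2.08, 1.62 and 2.30 CPM in Myod1+ cells and 0, 1.93, 4.36 and 1.12 CPM in Myog+ cells. In Myog+ cells these are 0, 3, 14 and 3 UMIs, and at 2000 UMIs 0 of 570 Myog+ cells had a *Myf6* UMI, which allows up to 0.526%. The log2 fold change of *Myf6* from Myod1+ to Myog+ was 0.15 (95% interval −0.76 to 1.06, adjusted p = 0.781, edgeR), and it was −1.02 without α-cdKO 1. Fiber RNA barcodes held 173, 112, 119 and 118 CPM of *Myf6*, and 17.9% of them had a UMI, against 0 of 139 endothelial cells, which allows up to 2.16%. The *Myf6* to *Ckm* ratio of these barcodes, applied to the *Ckm* of the myogenic groups, gave 4.80 to 11.5% of the *Myf6* of Pax7+ cells and 7.13 to 19.1% of that of Myod1+ cells. In Myog+ cells it gave 47.1, 10.2 and 23.6% in control 2, α-cdKO 1 and α-cdKO 2.

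**Figure D3:**
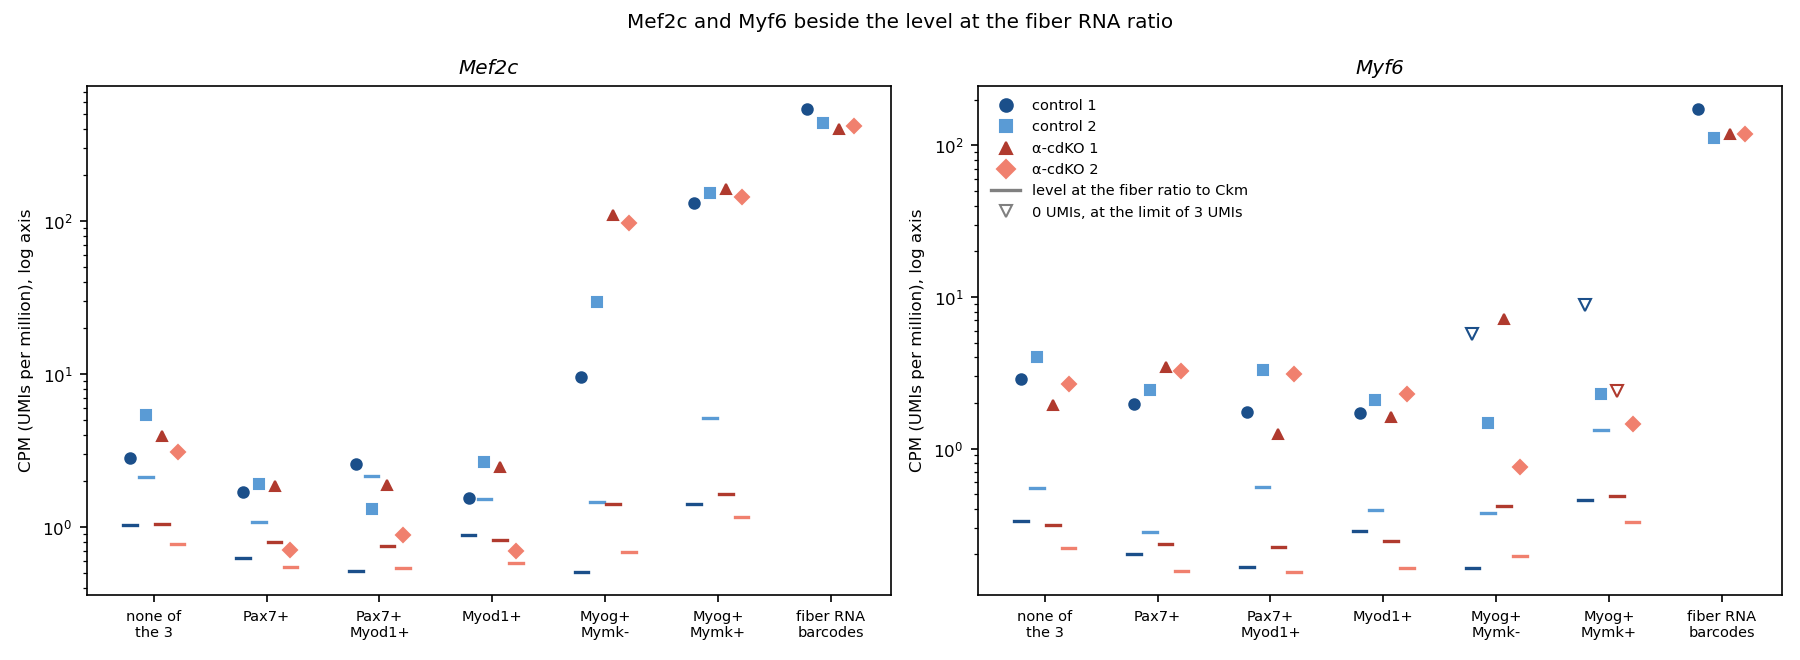
CPM on a log axis of *Mef2c* (left) and *Myf6* (right) in each cell group, 1 marker per sample, with short lines at the level given by the group's *Ckm* and the fiber RNA ratio, and open triangles for 0 UMIs drawn at 3 UMIs. The lines lie at 36.7 to 77.6% of the *Mef2c* of Pax7+ cells and far below that of *Mymk*+ cells.

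All 7 members passed the filter on low counts in the fits between groups, *Mef2c* with sums of only 5 to 12 UMIs in Pax7+ cells. From Pax7+ to Myod1+ cells 4 of the 7 were called (*Mef2a* and *Mef2d* higher, *Six4* and *Pax3* lower), against 42.5% of all 11420 genes tested. From Myod1+ to Myog+ cells 6 of 7 were called, against 64.7% of all genes, and from Pax7+ to Myog+ cells 6 of 7, against 60.1%. These counts are near or little above the background, so it is the sizes that set the members apart from each other. Over all genes the median log2 fold change was −0.07, 0.004 and −0.05 in the 3 comparisons. The fold changes from Pax7+ to Myog+ cells were 6.01 for *Mef2c*, 1.58 for *Six4*, 0.97 for *Mef2a*, 0.49 for *Mef2d*, −1.12 for *Eya1* and −1.64 for *Pax3*, all called at these settings, and −0.30 for *Myf6* (95% interval −1.25 to 0.65, adjusted p = 0.593, edgeR). In this comparison *Mef2d* was not called among cells under 5% mitochondrial UMIs (0.21, adjusted p = 0.520), nor *Pax3* with thinned UMIs summed (−1.18, adjusted p = 0.0686).

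**Figure D4:**
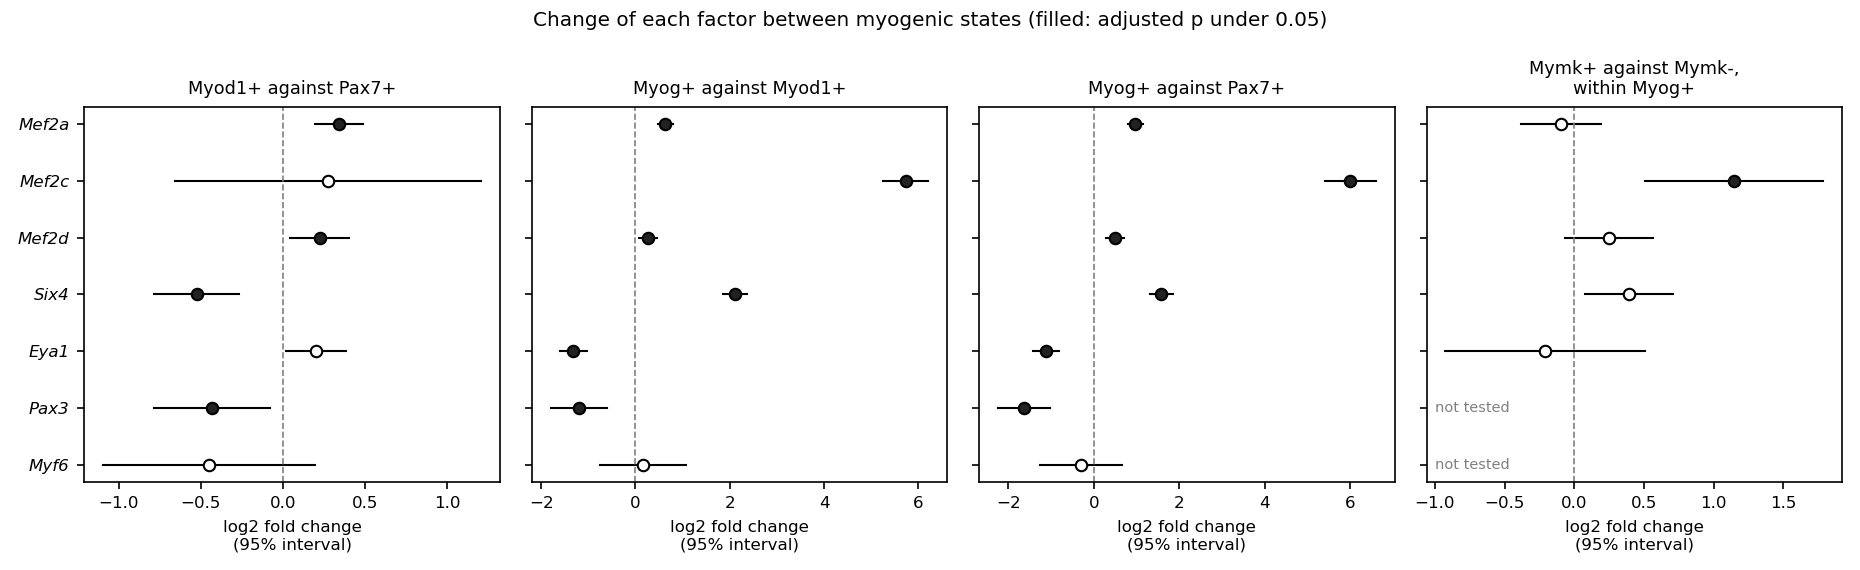
Log2 fold change of each gene with its 95% interval in 4 comparisons between cell groups, from edgeR fits with the sample as a block, filled where the adjusted p is under 0.05. *Mef2c* reaches 5.73 in Myog+ against Myod1+ cells, its interval includes 0 in Myod1+ against Pax7+ cells, and it is the one filled point in the *Mymk* split.

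Genes that work with these factors were counted from lists. Over all genes, 19.1% were called higher and 23.4% lower from Pax7+ to Myod1+ cells, and 33.1% and 31.6% from Myod1+ to Myog+ cells, and the counts below are to be read against these shares. Of 8 tested MEF2 partners and repressors, 2 were higher and 1 lower in Myod1+ than in Pax7+ cells. *Ppp3ca* (calcineurin, a phosphatase that activates MEF2) rose by 0.43 and *Hdac4* (a class IIa deacetylase) by 0.35 on the log2 scale. The 3 called of 8 are near the background of 42.5%. From Myod1+ to Myog+ cells 1 of 8 was higher and 4 lower (list median −0.21), among them *Hdac4* with −0.83, *Hdac5* with −0.39 and the co-activator *Ep300* with −0.28. Of 6 tested relatives and partners of *Six4* and *Eya1*, 4 were lower in Myod1+ cells, with *Eya4* at −0.39. In the next step 1 of 6 rose and 3 fell. *Eya4*, at −0.41, had the same direction as *Eya1*.

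Of 9 bHLH regulators, 1 was higher and 2 lower in Myod1+ than in Pax7+ cells, and 4 were higher and 5 lower in Myog+ than in Myod1+ cells. *Myf5*, the myogenic factor of undifferentiated cells, had a fold change of −2.42 in that step, and *Msc*, a repressor of MYOD, −1.82. The inhibitors of bHLH binding diverged, with *Id3* at −1.98 and *Id1* at 1.13. Of 7 genes under PAX3 and PAX7 control, 5 were lower and 1 higher in Myod1+ cells, including *Lbx1* at −0.70 and *Fgfr4* at −0.58. In Myog+ cells 3 rose and 2 fell against Myod1+ cells, with *Itm2a* at 0.45 and *Fgfr4* at −0.39. Of 16 early muscle structural genes, 4 were higher and none lower in Myod1+ cells, and 13 were higher and none lower in Myog+ cells (list median 4.04). The largest named rises were *Actc1* (7.87), *Mymk* (7.46), *Tnnt2* (6.86) and *Ttn* (4.82). Within Myog+ cells, the *Mymk*+ cells had lower *Id3* (−0.95), *Fgfr4* (−1.69) and *Itm2a* (−0.67) and higher *Actc1* (1.45), *Ttn* (1.35) and *Myl1* (1.47).

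The genes whose levels ran most like each member were sought among 8127 genes over the 20 sums of sample and cell group, with each sample centered (Pearson's r of log2 CPM + 5). These sums share libraries. *Mef2c* was at most 5.36 CPM outside Myog+ cells and at least 56.6 CPM in them, so its r rests mainly on that contrast. The other ranked members also had their highest or lowest mean in Myog+ cells, so their r may rest on it as well. Many genes share this contrast, as 64.7% of 11420 genes were called from Myod1+ to Myog+ cells. *Mef2c* ran most like *Hsbp1* (r = 0.991), 2310043L19Rik (0.990) and *Pdlim7* (0.990). *Six4* ran most like *Aasdhppt* (0.983), *Syne1* (0.981) and *Clpx* (0.979). For *Eya1* the closest were *Rem1* (0.981), *Ddr2* (0.981) and *Tagln2* (0.976), and for *Pax3* they were *Slc2a12* (0.944), *Khk* (0.940) and *Smpdl3a* (0.935). *Mef2a* ran most like 4833439L19Rik (0.980), *Uqcrb* (0.977) and *Psmb6* (0.976), and *Mef2d* like *Ddx1* (0.937), *Csnk1e* (0.935) and *Ctbp1* (0.916). *Myf6* was under 5 CPM on average and was not ranked.

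The comparison of α-cdKO with control asks whether these factors differ by genotype in cells of the MuSC lineage. In its staining of single myofibers, the paper found αE- or αT-catenin protein in most α-cdKO MuSCs that remained after tamoxifen. How many of the sorted α-cdKO cells had lost both proteins was not measured here. Each genotype had 2 samples, and p-values measure the spread between these pools. In all myogenic cells, no member was called, against 0.135% of 14805 genes (20 genes). Over all myogenic cells *Six4* was 14.8 and 21.9 CPM in control and 31.9 and 22.8 CPM in α-cdKO samples. The groups did not overlap, but 22.8 lay close to 21.9, and the log2 fold change was 0.57 (SE 0.225, adjusted p = 0.712, edgeR). *Eya1* was 21.4 and 20.8 CPM in control and 18.0 and 17.5 CPM in α-cdKO samples, again without overlap, with a fold change of −0.25 (SE 0.127, adjusted p = 0.746). At an unadjusted p under 0.05, which 1021 of 14805 genes passed, *Six4* was the only member to pass. The fold changes of the others were 0.13 for *Mef2a*, 0.51 for *Mef2c*, −0.01 for *Mef2d*, −0.25 for *Myf6* and −0.01 for *Pax3*. The 95% intervals were −0.38 to 1.39 for *Mef2c* and −0.31 to 0.28 for *Mef2d*, wide for *Mef2c* and narrow for *Mef2d*.

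No member was called within cell groups either, by edgeR or by DESeq2. Among Pax7+ cells 0.101% of genes were called, among Myod1+ cells 0.0742%, among Myog+ cells 0.0236% and among cells with none of the 3 genes 0.168%. At an unadjusted p under 0.05, 705 of 12130 genes passed in Myod1+ cells, 417 of 8458 in Myog+ cells and 1052 of 13715 in cells with none. Among them were 2 members in Myod1+ cells, *Six4* with 0.88 (adjusted p = 0.687) and *Eya1* with −0.37 (adjusted p = 0.825). *Six4* in Myod1+ cells was 11.01 and 14.3 CPM in control and 28.5 and 19.9 CPM in α-cdKO samples. In Myog+ cells 2 members passed unadjusted, *Mef2c* with 0.68 (adjusted p = 0.968) and *Pax3* with 2.22 (adjusted p = 0.968), the second from 1 and 2 UMIs in the controls. In cells with none, *Six4* passed with 0.48 (adjusted p = 0.648), and in Pax7+ cells no member passed. Whether the step from Pax7+ to Myog+ cells differed by genotype was tested as an interaction, in which 0 members and 0.158% of 11420 genes were called. The interaction was 1.51 for *Mef2c* (adjusted p = 0.530) and 2.32 for *Pax3* (adjusted p = 0.416). The 8 fiber genes summed to 324 and 609 CPM in the Myog+ cells of controls and 222 and 304 CPM in those of α-cdKO samples. *Ckm* alone overlapped in these cells, at 28.9 and 176 CPM in control and 76.0 and 49.1 CPM in α-cdKO samples. Of 6 fiber genes tested there, 0 were called for genotype. *Atp2a1*, also on this list, rose by 4.09 from Myod1+ to Myog+ cells. The part of fiber RNA in the result was not tested.

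**Figure D5:**
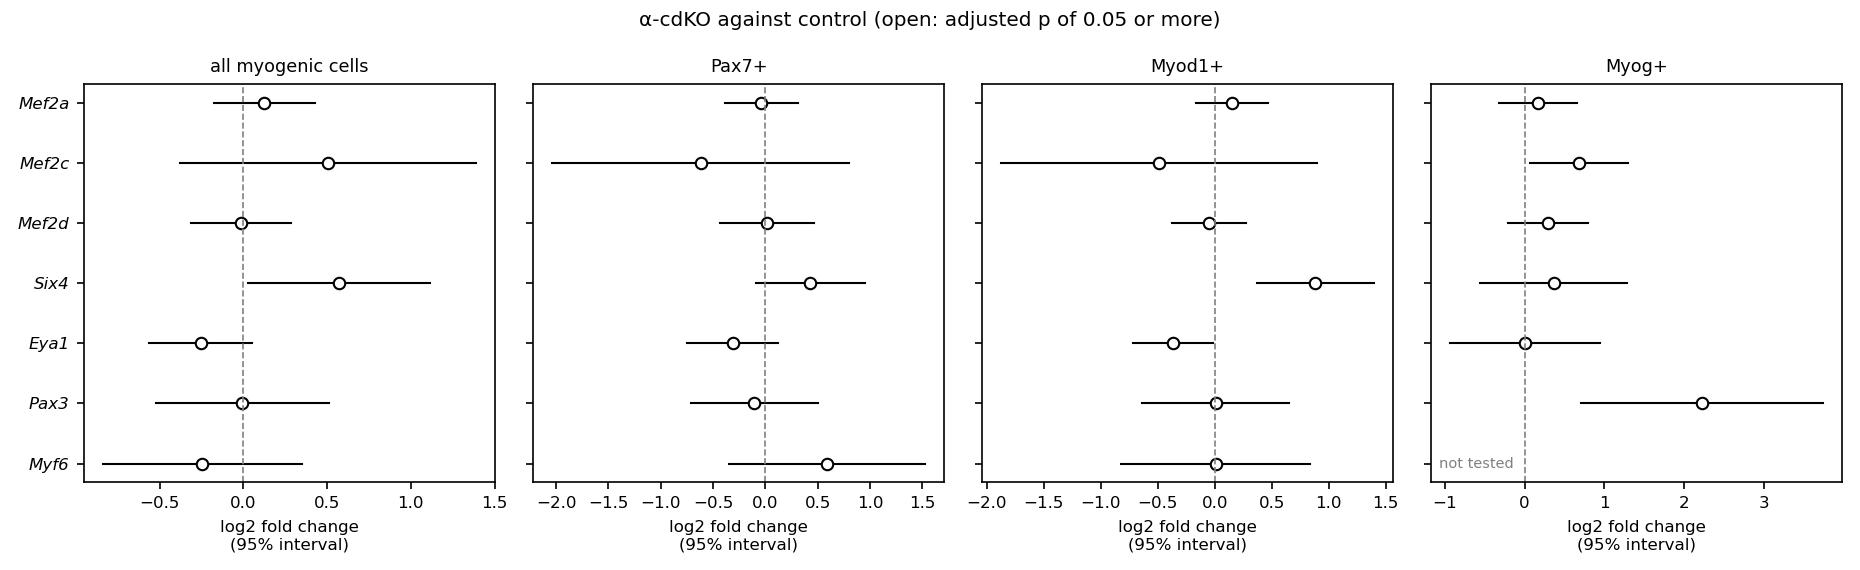
Log2 fold change of α-cdKO against control with its 95% interval for each gene in all myogenic cells and in Pax7+, Myod1+ and Myog+ cells, n = 2 samples per genotype. No adjusted p is under 0.05, every marker is open, and the value farthest from 0 is 2.22 for *Pax3* in Myog+ cells.

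Shares of cells with a UMI had the same directions for *Six4*, *Eya1* and *Mef2a*. In all myogenic cells at 2000 UMIs, a *Six4* UMI was seen in 2.43 and 3.26% of control and 4.81 and 3.56% of α-cdKO cells (difference of means 1.34 percentage points). For *Eya1* the shares were 3.78 and 3.74% against 3.01 and 2.89%, and for *Mef2a* they were 10.1 and 8.90% against 10.96 and 10.5%. These 3 did not overlap between genotypes, and the other 4 did. At 4000 UMIs the *Mef2a* shares overlapped, those of *Six4* and *Eya1* did not, and those of *Myf6* did not either (1.05 and 1.11% in control, 0.701 and 0.929% in α-cdKO samples). The two-sided exact permutation p was 0.33 for each of the 3, the lowest that 2 samples against 2 can give. That is also the share of splits in which a gene without a genotype difference would not overlap. The share over all genes was not counted, so the count of 3 is not read as a result about the members.

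From the lists, no gene of the 5 lists was called for genotype in all myogenic cells. In Myog+ cells 1 of 15 structural genes was called, *Mylpf* (myosin regulatory light chain of fast fibers), with a fold change of −2.05 (adjusted p = 0.0300). In the interaction 2 of 9 bHLH regulators were called, *Myf5* with 1.37 (adjusted p = 0.0203) and *Id3* with 1.11 (adjusted p = 0.00208, edgeR). Both fell less from Pax7+ to Myog+ cells in α-cdKO samples. Fiber genes in Myog+ cells summed to 324 and 609 CPM in control and 222 and 304 CPM in α-cdKO samples. Cells with the highest doublet scores made up 0 and 1.09% of control and 5.64 and 4.32% of α-cdKO Myog+ cells. The parts of fiber RNA and doublets in these calls were not tested, and the alternatives were read for the members only.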

How the data were processed

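Single-cell RNA-sequencing counts of 4 samples (2 control, 2 α-cdKO, grouped by the submitters' labels) were used. The authors deposited raw UMI counts per gene and barcode called as a cell, made with Cell Ranger 7.1.0 per the file headers on GRCm38, with 32285 genes and no normalization. Whether intronic reads were counted is not given in the sources used here. The submitters' processing notes also name Seurat 4.0.3.

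The cell filter is that of the paper's methods. Total UMIs were 48515992 and 46099310 in controls 1 and 2 and 73261352 and 74921651 in α-cdKO samples 1 and 2. Intervals (exact Clopper-Pearson, 95%) and floors (3 counts of the total) cover counting error only. Raw UMIs were summed per sample and cell group and tested with edgeR 4.0.16 in R 4.3.3 (filterByExpr, TMM, glmQLFit and glmQLFTest), with the sample as a block between cell groups and no block for genotype. Adjusted p-values (Benjamini-Hochberg over all genes tested) under 0.05 are called. DESeq2 1.42.0 was an alternative. The SE is the fold change divided by the root of the F value. Python 3.11.15, scipy 1.17.1 and scanpy 1.11.5 were also used.

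Replicate numbers 1 and 2 were not used to pair the samples in the main fits. The deviations of control 1 and α-cdKO 1 from their group means correlated at −0.21 over 14805 genes. With 2 samples per group this value cannot show whether samples were processed in pairs. Doublets were kept, since Scrublet's automatic threshold marked 1, 5, 1 and 3 cells. In an alternative the 241, 229, 766 and 533 cells with the highest scores were removed. The edgeR step was tested on simulated data.

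The 7 members, the lists and the cell groups were chosen with earlier results of these data known. Named genes are the members, for each member of at least 5 CPM the 3 genes most like it, and up to 4 called genes of each list with the largest change and at least 10 CPM. Some genes that this rule names are not reported here.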

Additional observations from a re-analysis of the deposited data

Results flagged for a closer look

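At 2000 UMIs *Mef2a* moved in opposite directions between genotypes in the split of Myog+ cells by *Mymk*. In each control sample *Mef2a* was lower in *Mymk*+ than in *Mymk*- cells, with a mean difference of −18.2 CPM. In each α-cdKO sample it was higher, with a mean difference of 9.10 CPM. The difference between genotypes was not tested, and the fold change over all 4 samples was −0.10 (adjusted p = 0.763, edgeR). The pattern did not hold at other depths: in control 2 *Mef2a* was 90.5 CPM in *Mymk*+ and 71.2 CPM in *Mymk*- cells at 4000 UMIs, and 87.4 and 53.9 CPM without thinning.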

How the results depend on the processing

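No fold change of a called member turned its sign under any alternative. *Mef2c*, *Six4*, *Mef2a* and *Eya1* were called from Myod1+ to Myog+ and from Pax7+ to Myog+ cells under every alternative run (14 each), with *Mef2c* from Pax7+ to Myog+ at 4.97 to 6.36 and *Six4* at 1.14 to 1.67. From Pax7+ to Myod1+ cells 4 members were called, but 2 with cells thinned to 4000 UMIs or not thinned, and 1 with thinned UMIs summed or with under 5% mitochondrial UMIs. With each sample left out there were 2 to 4, with 2 without control 2 and without α-cdKO 2. In the *Mymk* split 1 was called, but 2 at 4000 UMIs and 3 without thinning (*Mef2c*, *Six4* and *Mef2a*), 0 with no cells set aside, under 5% mitochondrial UMIs (where *Mef2c* had too few UMIs to be tested) or by DESeq2, and 0 to 1 with each sample left out, with 0 without control 2.

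For genotype 0 members were called in each cell group and in the interaction under every alternative, including the fit with the replicate block (0 called) and the crossed pairing, added after seeing the data.

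Fold changes that were not called turned sign in some settings. *Mef2c* from Pax7+ to Myod1+ was −0.0226 (4000 UMIs), −0.16 (no thinning) and −0.28 (under 5% mitochondrial). *Myf6* from Myod1+ to Myog+ was −0.0386 (no thinning), −0.0131 (no count filter) and −1.02 to 0.54 with a sample left out, and from Pax7+ to Myog+ 0.0237 (no cells set aside) and −1.30 to 0.11 with a sample left out. *Mef2a* in the *Mymk* split was 0.25 (4000 UMIs), 0.49 (no thinning) and 0.10 (under 5% mitochondrial). For genotype in all myogenic cells, *Mef2c* was −0.94 (no cells set aside) and −0.0547 (under 5% mitochondrial), and *Mef2d* 0.0270 (thinned UMIs) and −0.0964 to 0.0784 with a sample left out. *Pax3* was 0.10 (thinned UMIs), 0.0566 (no cells set aside), 0.17 (under 5% mitochondrial), 0.00456 (no count filter), 0.0154 (replicate block), 0.0123 (crossed) and −0.25 to 0.30 with a sample left out. *Six4* in Myog+ cells was −0.15 to 1.36 with a sample left out, and the *Mef2c* interaction −0.0943 with thinned UMIs. The genotype difference in the share of cells with a *Mef2c* UMI was −2.58 percentage points with no cells set aside, where control 2 brings 747 fiber RNA barcodes. The causes of the other changes were not tested. Low counts limit *Myf6*, *Pax3* and *Mef2c* most.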
